A study of Homo sapiens with 4 samples.

Results

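The genes of the proteasome were described in KGN cells, an established human tumor line in long use as a model of granulosa cells, after infection with a lentivirus carrying TOX3. The members were all rows of the table whose symbol begins with PSMA to PSMG and a number, or is POMP, with pseudogenes left out. The name pattern took 64 rows, 11 of them pseudogenes, so that 53 of the 33880 genes of the table remained. Of these, 48 are genes of subunits, activators, an inhibitor and assembly factors, and the other 5 are 4 antisense transcripts and PSMC3IP, a recombination protein named after its binding partner. PSMA8, the testis form of an alpha subunit, was not analysed here. The LV-TOX3 group held 2 libraries of cells infected with the TOX3 overexpression lentivirus, and the LV-CON group held 2 libraries of cells infected with the control lentivirus. By the methods, both viruses carried puromycin resistance, and infected cells were selected with puromycin. The TOX3 insert is the difference between the groups that the methods state, while the labels name only CON or TOX3 and a number. The promoter that drives TOX3 is not given in the sources used here, nor is a separate infection for each replicate, so the p-values cover only the spread of these libraries, which may be technical. The RNA of both groups was measured as RPKM, which scales the reads of a gene by its length and by the reads of its library.

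The proteasome is the protease that destroys proteins marked with ubiquitin. Its 20S core is a barrel of alpha and beta rings, in which 3 beta subunits (PSMB5, PSMB6 and PSMB7) cut peptide bonds. The 19S regulatory particle sits on the barrel: its lid removes ubiquitin, and its base, which holds a ring of ATPases, unfolds the substrate and threads it into the core. Interferon-induced cells can exchange the cutting subunits for PSMB8, PSMB9 and PSMB10, and can place the PSME1-PSME2 activator on the core, which alters the peptides available for presentation on MHC class I. In human cells the transcription factor encoded by NFE2L1 raises the genes of the complex when proteasome activity falls short.

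The 4 libraries held between 16403371 and 17858746 reads. TOX3 had 1586 and 1428 reads in LV-TOX3, against 0 and 0 reads in LV-CON (adjusted p = 0.00311 from limma), as the labels have it. The higher of these LV-TOX3 libraries, replicate 1, lay 529-fold over a floor of 3 reads per LV-CON library. TOX3 was the only gene of the 14184 tested at an adjusted p under 0.05 (0.00705%). Among markers of granulosa cells, FOXL2, GATA4 and NR5A1 were present in every library, and the summed level of the 11 granulosa markers found was 104.9 and 100.6 RPKM in LV-TOX3, against 99.0 and 97.1 RPKM in LV-CON. Some granulosa markers were low: INHA lay between 0.703 and 1.09 RPKM and WT1 between 0.852 and 1.10 RPKM. AMHR2 had 9 and 7 reads in LV-TOX3, against 4 and 1 reads in LV-CON. Of the granulosa markers, FSHR was higher and INHBB lower in LV-TOX3 at an unadjusted p under 0.05 by limma. At that threshold 3.07% of all genes were higher and 3.73% lower. The adjusted p from limma was 0.553 for FSHR and 0.718 for INHBB. CYP19A1 missed that threshold, with a log2 fold change of 0.87 (adjusted p = 0.734 from limma). Of the 10 granulosa markers tested, 6 had negative and 4 positive log2 fold changes. The 5 leukocyte markers found summed to between 0.575 and 0.763 RPKM, with LYZ and CD68 at 0 in all libraries. Endothelial markers summed to between 2.45 and 3.25 RPKM, and epithelial markers to between 0.265 and 0.777 RPKM. The part of these markers in the proteasome values was not tested. In bulk RNA, fewer cells of a type and less RNA per cell cannot be told apart.

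The promoters of 6 members are shown because these genes carry the comparisons that follow. RefSeq promoters (GRCh38.p14, 250 bases before to 50 bases after the start) were matched for 47 of the 53 members; no entry was matched for PSMD4, PSMA7, PSMB6, PSMB1, PSMG3 and PSMB7. The first set is PSMB3 and PSMD10, members at an unadjusted p under 0.05, with PSMD3, the lid gene of the smallest p. Capitals mark TGACNNNGC, a short form of the element bound by the NFE2L1 family, and CCAAT, the box bound by NF-Y, on either strand, so that ATTGG is a CCAAT box read from the other strand. The windows are chr17:38752491-38752790 (plus strand) for PSMB3, chr17:39980557-39980856 (plus strand) for PSMD3 and chrX:108091493-108091792 (minus strand) for PSMD10.
PSMB3: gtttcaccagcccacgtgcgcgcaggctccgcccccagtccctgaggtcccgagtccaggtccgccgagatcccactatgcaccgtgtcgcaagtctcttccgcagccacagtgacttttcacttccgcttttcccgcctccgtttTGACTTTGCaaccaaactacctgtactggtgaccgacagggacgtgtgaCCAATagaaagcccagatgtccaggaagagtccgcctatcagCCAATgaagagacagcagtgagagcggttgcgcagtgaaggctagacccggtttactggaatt
PSMD3: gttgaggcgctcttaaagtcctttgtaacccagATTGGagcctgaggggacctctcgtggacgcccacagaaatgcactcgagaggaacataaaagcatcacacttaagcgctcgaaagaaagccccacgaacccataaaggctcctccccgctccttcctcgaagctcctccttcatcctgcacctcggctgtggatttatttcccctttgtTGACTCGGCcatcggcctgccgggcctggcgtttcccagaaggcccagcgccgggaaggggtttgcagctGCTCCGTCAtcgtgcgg
PSMD10: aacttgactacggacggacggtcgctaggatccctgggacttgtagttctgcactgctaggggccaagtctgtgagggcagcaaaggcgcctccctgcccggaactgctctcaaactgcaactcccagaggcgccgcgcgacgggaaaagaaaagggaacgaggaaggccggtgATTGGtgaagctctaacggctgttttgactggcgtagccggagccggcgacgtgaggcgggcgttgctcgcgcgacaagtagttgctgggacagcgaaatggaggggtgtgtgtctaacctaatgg

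PSMB3 held 1 TGACNNNGC and 2 CCAAT boxes, PSMD3 held 2 TGACNNNGC and 1 CCAAT box, and PSMD10 held 1 CCAAT box. Over the 42 matched promoters of subunits, activators, inhibitor and assembly factors, 13 (31.0%) held TGACNNNGC on either strand, against 13.6% of all 27305 RefSeq promoters of the same length. Among the 26 matched promoters of constitutive subunits the share was nearer to that of all promoters, at 5 (19.2%), and the other 8 lay in genes of immune subunits, activators and assembly factors. CCAAT stood in 19 of the 42 (45.2%) and 14 of the 26 (53.8%), against 35.7% of all promoters, and GGGCGG, the GC box, in 27 of the 42 (64.3%) and 18 of the 26 (69.2%), against 44.6%. TATAAA, the TATA box, stood in 4 promoters, all of them of constitutive subunits, which is 9.52% of the 42 and 15.4% of the 26, against 12.0% of all promoters. These motifs can share bases but do not contain each other, and a match of letters is not a binding site.

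The second set is PSMB10, PSME1 and PSME2, the interferon-inducible subunit and activator genes that held GAAA repeated after a gap of any 2 bases, a short form of the interferon-stimulated response element, which capitals mark here on either strand. TTCNNNGAA, the gamma-activated form, was searched as well and was not in these 3 windows. The windows are chr16:67936801-67937100 (minus strand) for PSMB10, chr14:24135944-24136243 (plus strand) for PSME1 and chr14:24146561-24146860 (minus strand) for PSME2.
PSMB10: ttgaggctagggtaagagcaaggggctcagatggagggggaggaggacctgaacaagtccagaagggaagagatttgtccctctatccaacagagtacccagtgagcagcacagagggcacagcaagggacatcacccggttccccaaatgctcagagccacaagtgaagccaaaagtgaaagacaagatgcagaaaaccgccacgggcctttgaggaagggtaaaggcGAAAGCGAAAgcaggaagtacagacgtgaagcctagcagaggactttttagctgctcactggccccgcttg
PSME1: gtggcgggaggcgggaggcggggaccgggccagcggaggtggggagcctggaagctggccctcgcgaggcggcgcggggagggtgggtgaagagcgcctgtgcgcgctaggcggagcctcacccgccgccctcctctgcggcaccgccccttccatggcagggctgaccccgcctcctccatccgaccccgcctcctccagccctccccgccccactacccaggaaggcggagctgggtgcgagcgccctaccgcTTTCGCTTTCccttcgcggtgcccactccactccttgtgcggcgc
PSME2: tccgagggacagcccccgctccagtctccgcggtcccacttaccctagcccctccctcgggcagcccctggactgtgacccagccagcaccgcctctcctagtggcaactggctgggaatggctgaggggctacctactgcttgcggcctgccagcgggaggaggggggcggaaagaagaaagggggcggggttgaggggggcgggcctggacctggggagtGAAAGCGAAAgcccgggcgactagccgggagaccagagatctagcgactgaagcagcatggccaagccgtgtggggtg

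In all 3 the gap held GC, and PSME1 carries the element on the other strand. This exact form, a case of the gapped one, was taken from the PSME2 window after the sequences were seen. It stood in 4 of the 42 promoters (9.52%), the 3 shown and PSMG4, against 30 of all 27305 promoters (0.11%). Since the windows shown led to this search, these shares are counts and not a test. The gapped repeat stood in 6 of the 42 (14.3%), against 3.65% of all promoters, and TTCNNNGAA in 4 (9.52%), against 7.88%. Among the 26 constitutive subunits the gapped repeat stood in 2 (7.69%) and TTCNNNGAA in 3 (11.5%). The PSMB8 and PSMB9 windows held neither the gapped GAAA repeat nor TTCNNNGAA, while the window of PSMB8-AS1 in the same locus (chr6:32843836-32844135) held both, the repeat in the exact form with GC.

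The subunits of the complex were measured at levels within about an order of magnitude of each other, apart from 3 genes. Over the 28 subunits other than PSMA1, PSMA2 and PSMA6, the mean level ran between 9.05 RPKM for PSMC1 and 97.003 RPKM for PSMA7, with a median of 30.0 RPKM, a span of 10.7-fold. PSMA7, an alpha ring subunit, had 86.0 and 94.6 RPKM in LV-TOX3, against 98.1 and 109 RPKM in LV-CON. In the beta ring, PSMB4 was the highest with 81.4 and 82.8 RPKM in LV-TOX3, against 88.1 and 86.2 RPKM in LV-CON, and PSMB2 was the lowest with 28.0 and 29.8 RPKM in LV-TOX3, against 32.2 and 30.1 RPKM in LV-CON. In these 3 genes both LV-TOX3 libraries lay below both LV-CON libraries, as in 20.6% of all genes tested. The base subunit PSMD2, a scaffold that receives ubiquitin-like proteins, had 49.6 and 49.8 RPKM in LV-TOX3, against 52.1 and 57.2 RPKM in LV-CON. PSMD1, the other large base scaffold, was the lowest base non-ATPase, at 29.9 and 30.3 RPKM in LV-TOX3 and 29.4 and 30.4 RPKM in LV-CON, so its groups overlapped. In the lid, PSMD8 was the highest with 35.1 and 35.3 RPKM in LV-TOX3, against 36.4 and 38.4 RPKM in LV-CON, and PSMD6 was the lowest with 9.88 and 10.4 RPKM in LV-TOX3, against 10.7 and 10.5 RPKM in LV-CON. Both lid genes had separate groups, by a narrow gap in PSMD6. PSMD14, the lid enzyme that removes the ubiquitin chain, was at 12.2 and 11.9 RPKM in LV-TOX3 and 12.3 and 11.9 RPKM in LV-CON, with overlap.

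The spread of levels depends on the length used for each gene. The lengths implied by the deposited values were longer than the main transcript for many members, for example 9123 bases for PSMD6 against 1362 bases for its GENCODE v44 canonical transcript. By canonical length the same 28 subunits ran between 12.7 RPKM for PSMC1 and 199.0 RPKM for PSMB4, a span of 15.7-fold with a median of 65.8 RPKM. PSMD14 stood at 59.3 RPKM on that scale, against 12.1 RPKM as deposited, and PSMG4, a chaperone of core assembly, stood at 18.99 RPKM, against 1.43 RPKM as deposited. Levels of different genes are therefore ordered only within the scale named beside them, while the RPKM ratio of LV-TOX3 to LV-CON within a gene does not depend on its length. The filter for testing, a mean of 0.5 RPKM, and the 0.1 added to RPKM before the log2 do depend on it. PSMA2, PSMA6 and PSMD9 missed this filter as deposited, but had means of 1.67, 1.25 and 1.61 RPKM by canonical length.

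**Figure D1:**
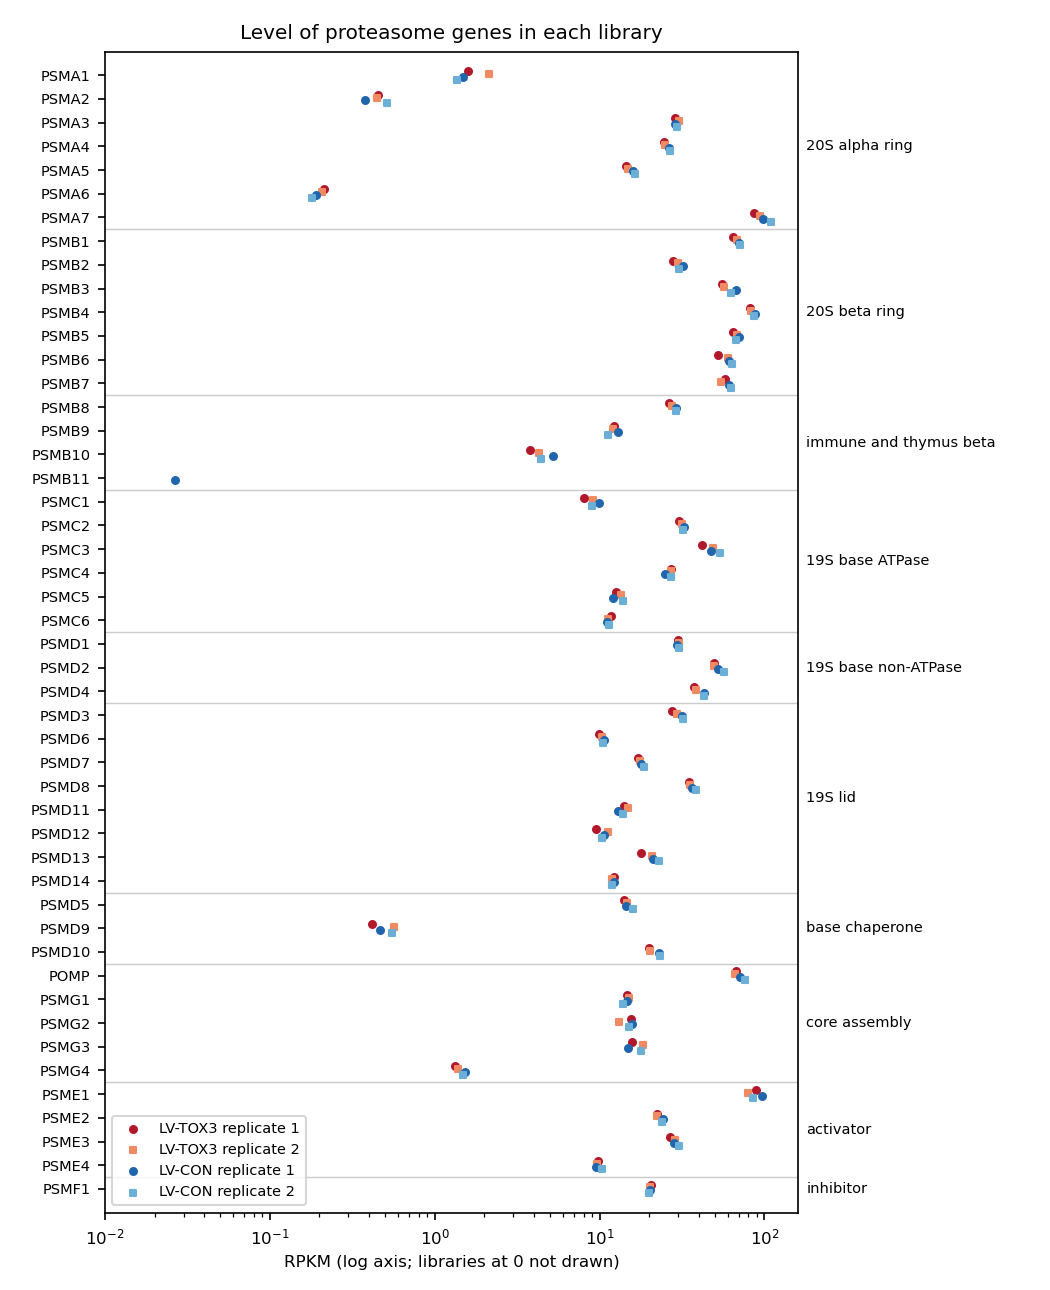
RPKM of each proteasome gene in each library on a log axis, grouped by class, with LV-TOX3 libraries in red and orange and LV-CON libraries in blue. The 4 libraries of a gene lie close together beside the span between genes, and PSMA1, PSMA2, PSMA6, PSMB11, PSMD9 and PSMG4 lie far below the rest of their classes.

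The 3 alpha ring genes that stood apart were also the only ones of the 31 subunits under 5 RPKM, although the alpha ring needs each of its 7 subunits. PSMA6 had 24 and 22 reads in LV-TOX3, against 22 and 21 reads in LV-CON, and PSMA2 had 42 and 39 reads in LV-TOX3, against 36 and 49 reads in LV-CON. PSMA1 had 92 and 115 reads in LV-TOX3, against 87 and 80 reads in LV-CON. In GENCODE v44 the main transcript of each lies largely inside a second gene model on the same strand: 100% of the bases for PSMA2, 81.4% for PSMA6 and 67.0% for PSMA1. The 2 such models with a row in the table had at most 4 reads in any library. PSMB10 (56.1%) and the base chaperone PSMD9 (28.8%) were the only other subunit, activator, inhibitor or assembly genes with any such overlap, and the remaining 43 of 48 had 0%. A link between this overlap and the low counts was not tested, since the rule by which reads of overlapping genes were assigned is not given in the sources used here. Read depth limits these genes. PSMA2, PSMA6 and PSMD9, with PSMB11, fell below the filter of a mean of 0.5 RPKM as deposited and were not tested. That filter also depends on the gene length used.

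**Figure D2:**
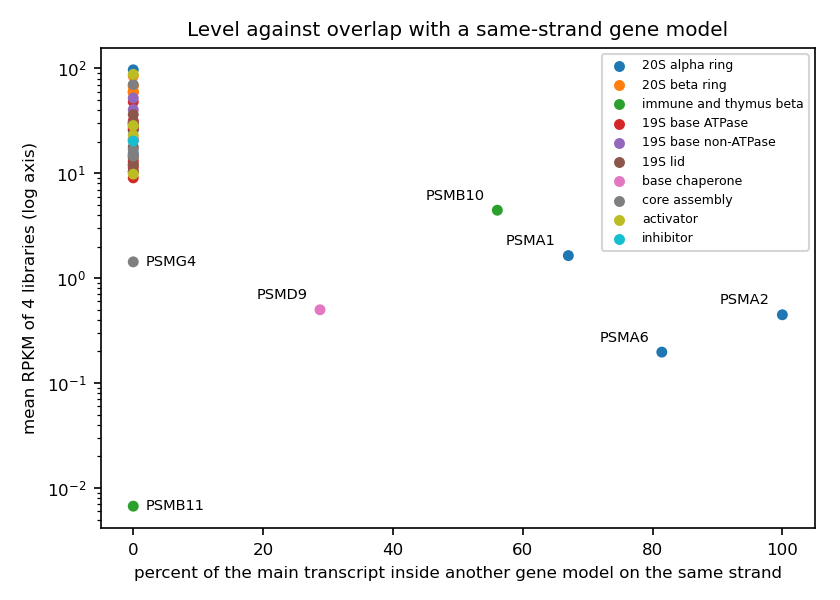
Mean RPKM over the 4 libraries on a log axis against the percent of the canonical transcript that lies inside another gene model on the same strand, 1 point per gene. PSMA1, PSMA2 and PSMA6, with 67.0% to 100% overlap, are the lowest of the 31 constitutive subunits, and PSMG4 and PSMB11 are low at 0%.

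Most proteasome genes lay slightly lower in LV-TOX3 than in LV-CON, by amounts that no single gene carried past the adjusted threshold. Of the 49 members tested, 36 (73.5%) had a negative log2 fold change on the log2(RPKM + 0.1) scale, against 53.2% of all 14184 genes. The median over members was -0.090, against -0.012 over all genes. In 26 members (53.1%) both LV-TOX3 libraries lay below both LV-CON libraries, against 20.6% of all genes, and in 3 (6.12%; PSMA1, PSMD11 and PSMG1) both lay above, against 17.0% of all genes. Since most members are abundant, the same was counted over genes of at least 10 RPKM: 21 of 39 members (53.8%) lay entirely lower and 2 (5.13%) entirely higher, against 25.3% and 15.5% of the 4177 genes of that level. At that level 29 members (74.4%) had a negative log2 fold change, against 57.6% of the genes. All members were read in the same 4 libraries, so these are counts and not independent tests.

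The libraries did not share the shift evenly. The median deviation of the 49 members from each gene's own mean, on the log2 scale, was -0.068 and -0.010 in LV-TOX3 replicates 1 and 2, against 0.036 and 0.046 in LV-CON replicates 1 and 2. LV-TOX3 replicate 2 therefore lay nearest to the LV-CON libraries. Without LV-TOX3 replicate 1 the median log2 fold change over members was -0.052, and 35 of 49 members were still negative; without LV-TOX3 replicate 2 it was -0.102, with 39 negative.

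At an unadjusted p under 0.05, 3 members were lower in LV-TOX3 (6.12%), against 3.73% of all genes tested, and 0 were higher, against 3.07% of all genes. With limma and Benjamini-Hochberg adjustment over all genes, 0 members passed, and the smallest adjusted p was 0.718. The limma-voom fit on recovered reads also called 0 members at an adjusted p under 0.05.

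The 3 were PSMD10, PSMB3 and PSMD4. PSMD10, a chaperone that helps assemble the base and is also known as gankyrin (hg38 chrX:108084207-108091549), had 19.8 and 20.4 RPKM in LV-TOX3, against 23.1 and 23.4 RPKM in LV-CON. PSMB3, a noncatalytic beta subunit (hg38 chr17:38752741-38764225), had 55.0 and 57.3 RPKM in LV-TOX3, against 67.1 and 62.7 RPKM in LV-CON. PSMD4, a ubiquitin receptor of the base (hg38 chr1:151254709-151267479), had 37.6 and 38.3 RPKM in LV-TOX3, against 42.9 and 43.1 RPKM in LV-CON. In each of the 3 genes both LV-TOX3 libraries lay below both LV-CON libraries, as in 20.6% of all genes tested. The 3 were picked by p in these same libraries, so this separation adds no further support. The log2 fold changes were -0.21 ± 0.07 for PSMD10 (SE), -0.21 ± 0.07 for PSMB3 and -0.18 ± 0.06 for PSMD4, each with an adjusted p of 0.718 from limma. With 1 library left out at a time, the log2 fold changes ranged over -0.23 to -0.19 for PSMD10, -0.26 to -0.16 for PSMB3 and -0.19 to -0.17 for PSMD4, and each gene missed an unadjusted p under 0.05 in every such fit, apart from PSMB3 without LV-CON replicate 2. Without LV-TOX3 replicate 2 the 2 members under that threshold were PSMB6 and PSMD13 instead.

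**Figure D3:**
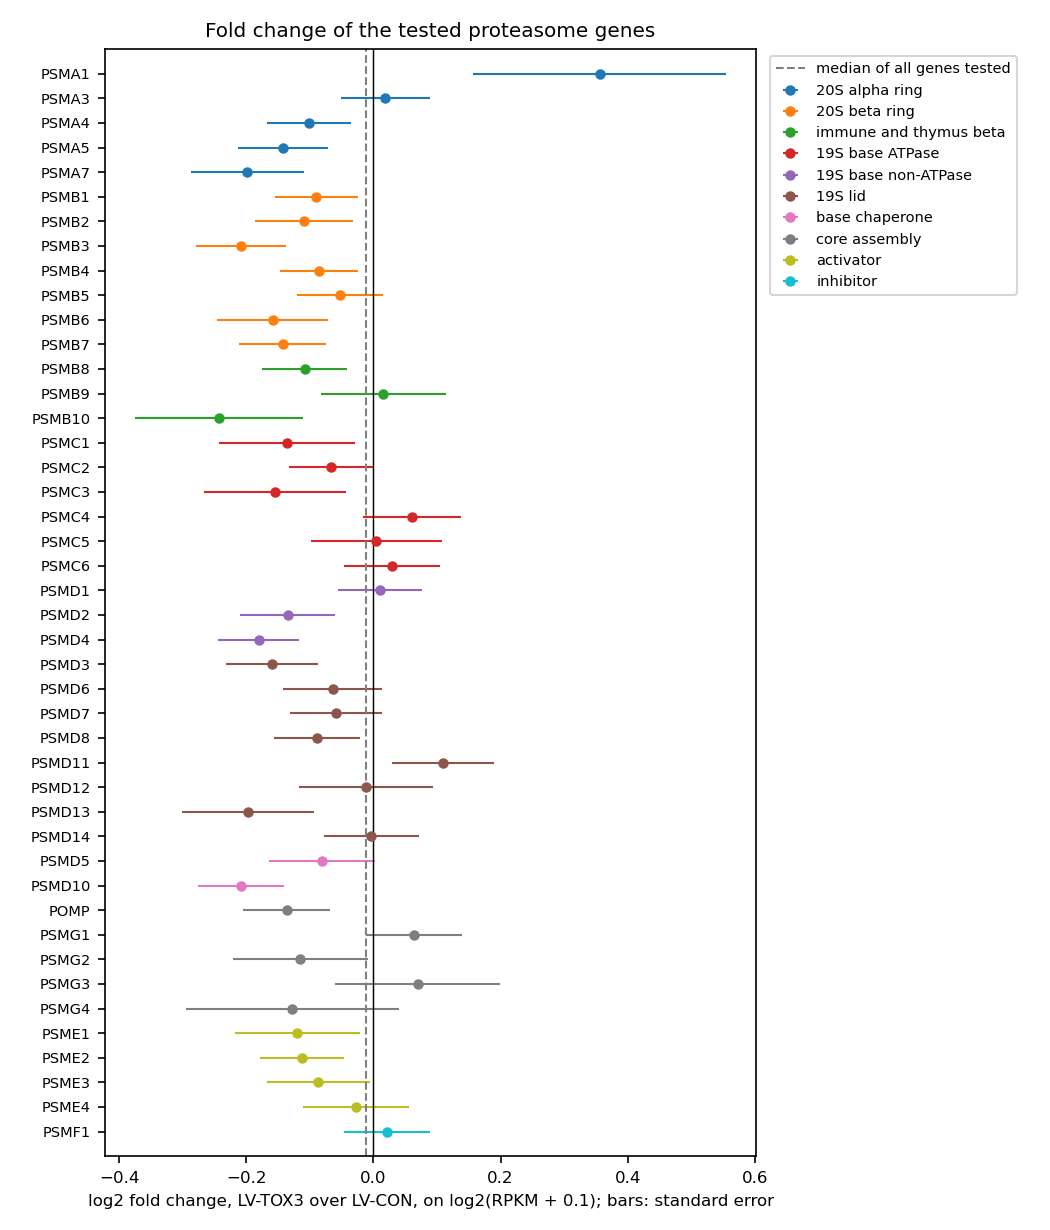
Log2 fold change of LV-TOX3 over LV-CON for the 44 tested subunit, activator, inhibitor and assembly genes, coloured by class, with bars of 1 standard error from limma and the median of all genes as a line. PSMD10, PSMB3 and PSMD4 lie near -0.2, and most other members lie between there and 0.

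By class, the sums of the core rings lay lower in LV-TOX3, and those of the ATPase ring did not separate the groups. Levels of a class were summed as RPM, the reads of its genes scaled to the total of the library and not to gene length. The 20S beta ring summed to 815 and 849 RPM in LV-TOX3, against 905 and 891 RPM in LV-CON, and all 7 members had negative log2 fold changes, 6 of them with separate groups. The group mean was 832 ± 23.7 RPM in LV-TOX3 and 898 ± 10.4 in LV-CON (SD, n = 2 each), 7.35% lower. The alpha ring summed to 505 and 530 RPM in LV-TOX3, against 545 and 573 RPM in LV-CON, and 3 of its 5 tested members had negative log2 fold changes. The median log2 fold change was -0.11 in the beta ring and -0.10 in the alpha ring. Of all genes tested, 53.2% had a negative log2 fold change, and 20.6% had both LV-TOX3 libraries below both LV-CON libraries.

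In the 19S particle, the lid summed to 714 and 758 RPM in LV-TOX3, against 763 and 781 in LV-CON, with 7 of 8 members negative and a median of -0.062. The base non-ATPases (PSMD1, PSMD2 and PSMD4) summed to 540 and 545 RPM in LV-TOX3, against 567 and 600 in LV-CON, with a median of -0.14. The base ATPases summed to 461 and 490 RPM in LV-TOX3, against 481 and 506 in LV-CON, so their groups overlapped, and 3 of the 6 were negative and 3 positive (median -0.031). The immune and thymus subunits summed to 97.7 and 100.3 RPM in LV-TOX3, against 107.7 and 101.1 in LV-CON, with 2 of 3 tested genes negative and a median of -0.11. The activators summed to 407 and 394 RPM in LV-TOX3, against 430 and 422 in LV-CON, with all 4 negative and a median of -0.099. Beside these counts, 53.2% of all genes tested were negative. Core rings, immune subunits and activators thus had medians close to each other, and the ATPases had the median nearest that of all genes. Between classes the difference in response was not tested, since members of a class are not replicates. With each library left out in turn, the class medians ranged over -0.13 to -0.064 for the beta ring, -0.12 to -0.084 for the alpha ring, -0.097 to -0.033 for the lid, -0.18 to -0.068 for the base non-ATPases and -0.074 to -0.0059 for the ATPases. The medians nearest 0 came without LV-TOX3 replicate 1 in the beta ring and the lid and without LV-CON replicate 2 in the other classes of this list.

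**Figure D4:**
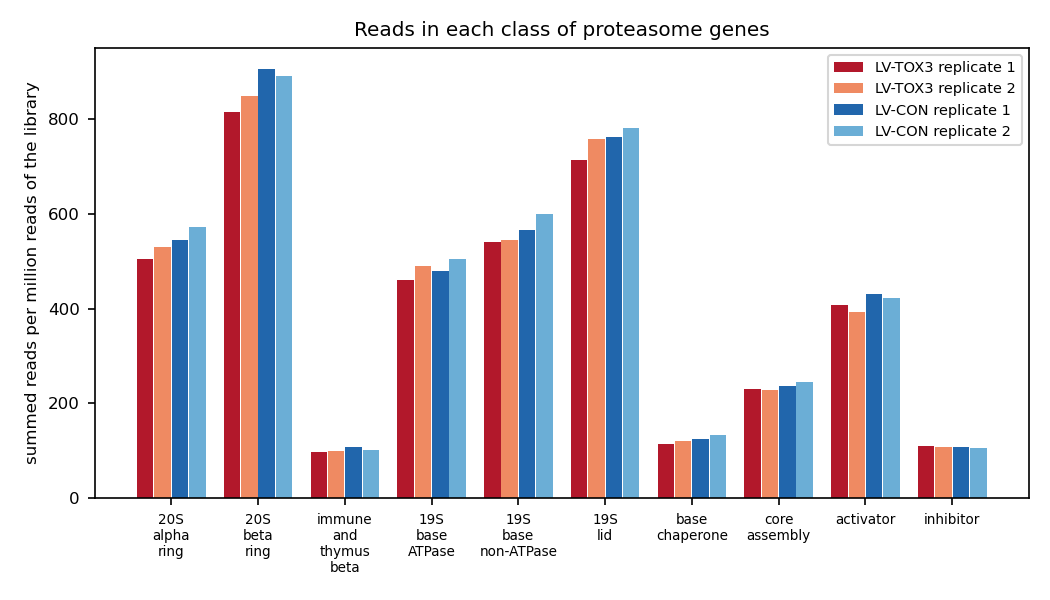
Summed RPM of each class in each library, LV-TOX3 in red and orange left of LV-CON in blue; bars start at 0. LV-TOX3 bars are below both LV-CON bars in the rings, the immune subunits, the base non-ATPases, the lid, the assembly classes and the activators, while those of the ATPases and of the inhibitor overlap.

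Among single core genes, PSMA7 gave a log2 fold change of -0.20 ± 0.09 (SE; adjusted p = 0.742 from limma) and PSMA5, another alpha subunit, had 14.5 and 14.8 RPKM in LV-TOX3, against 16.0 and 16.4 RPKM in LV-CON (adjusted p = 0.763 from limma). Of the cutting subunits, PSMB7, the trypsin-like one, had 58.0 and 54.4 RPKM in LV-TOX3, against 61.3 and 62.8 RPKM in LV-CON (log2 fold change -0.14 ± 0.07; adjusted p = 0.762 from limma). PSMB6, the caspase-like one, had 52.5 and 59.9 RPKM in LV-TOX3, against 61.3 and 63.9 RPKM in LV-CON (adjusted p = 0.788 from limma). PSMB5, the chymotrypsin-like one and the main target of bortezomib, had 64.5 and 68.3 RPKM in LV-TOX3, against 69.9 and 67.7 RPKM in LV-CON. PSMB5 was the beta ring gene whose groups overlapped, with a log2 fold change of -0.053 ± 0.068 (adjusted p = 0.915 from limma).

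In the base and lid, PSMC3, an ATPase of the ring, had 42.0 and 49.1 RPKM in LV-TOX3, against 47.4 and 54.0 RPKM in LV-CON, and PSMC1, also an ATPase, had 8.07 and 9.17 RPKM in LV-TOX3, against 9.96 and 8.99 RPKM in LV-CON. In both genes the libraries of the 2 groups overlapped (adjusted p = 0.844 for PSMC3 and adjusted p = 0.858 for PSMC1 from limma). PSMC1 lies for 83.2% of its main transcript opposite NRDE2, so without a stated strand setting its reads cannot be told from those of that gene. PSMD3, a lid scaffold, had 27.4 and 29.6 RPKM in LV-TOX3, against 31.8 and 31.9 RPKM in LV-CON (log2 fold change -0.16 ± 0.07; adjusted p = 0.746 from limma), and PSMD13, also of the lid, had 17.8 and 20.7 RPKM in LV-TOX3, against 21.2 and 23.0 RPKM in LV-CON (adjusted p = 0.775 from limma). Both LV-TOX3 libraries lay below both LV-CON libraries in these lid genes, as in 20.6% of all genes tested. PSMD2, with the levels above, had a log2 fold change of -0.14 ± 0.07 (adjusted p = 0.788 from limma), or -0.068 without LV-CON replicate 2. PSMD11, a lid subunit, ran the other way, at 14.1 and 14.9 RPKM in LV-TOX3, against 13.0 and 13.9 RPKM in LV-CON (adjusted p = 0.846 from limma).

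The immune subunits were present, with no interferon named among the treatments, at lower levels than their constitutive counterparts. For PSMB10, 56.1% of the main transcript lies inside another gene model on the same strand. The part of that overlap in its level, and so in its ratio to PSMB7 below, was not tested. PSMB8 (hg38 chr6:32840717-32844679) had 26.5 and 27.4 RPKM in LV-TOX3, against 28.9 and 29.1 RPKM in LV-CON (log2 fold change -0.11 ± 0.07; adjusted p = 0.803 from limma). PSMB9, its neighbour in the MHC (hg38 chr6:32844136-32859851), had 12.2 and 12.1 RPKM in LV-TOX3, against 13.0 and 11.2 RPKM in LV-CON, and its groups overlapped (adjusted p = 0.990 from limma). PSMB10, with 123 and 131 reads in LV-TOX3, against 173 and 146 reads in LV-CON, had a log2 fold change of -0.24 ± 0.13 (adjusted p = 0.780 from limma), or -0.12 without LV-CON replicate 1 and -0.37 without LV-CON replicate 2. PSMB11, the beta subunit of the thymus, had 0 and 0 reads in LV-TOX3, against 1 and 0 reads in LV-CON.

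The balance of immune to constitutive subunits was set per library as a ratio of RPKM. PSMB8 to PSMB5 was 0.410 and 0.402 in LV-TOX3, against 0.414 and 0.430 in LV-CON, both LV-TOX3 ratios lying below both of LV-CON, with a log2 difference of -0.055 (p = 0.3333, two-sided exact permutation test, the smallest that 2 libraries against 2 allow). PSMB9 to PSMB6 was 0.233 and 0.203 in LV-TOX3, against 0.212 and 0.176 in LV-CON, and PSMB10 to PSMB7 was 0.0657 and 0.0792 in LV-TOX3, against 0.0858 and 0.0703 in LV-CON. Groups overlapped in both of these pairs (p = 0.6667 each, exact permutation test). With a library left out, the log2 difference ranged over -0.084 to -0.027 for PSMB8 to PSMB5 (nearest 0 without LV-CON replicate 2), 0.040 to 0.31 for PSMB9 to PSMB6 (nearest 0 without LV-CON replicate 2) and -0.25 to 0.038 for PSMB10 to PSMB7, which changed sign without LV-TOX3 replicate 1 and without LV-CON replicate 1. By canonical transcript length the PSMB9 to PSMB6 ratio was 0.401 and 0.349 in LV-TOX3, against 0.364 and 0.302 in LV-CON, so the size of that ratio rests on the length used.

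**Figure D5:**
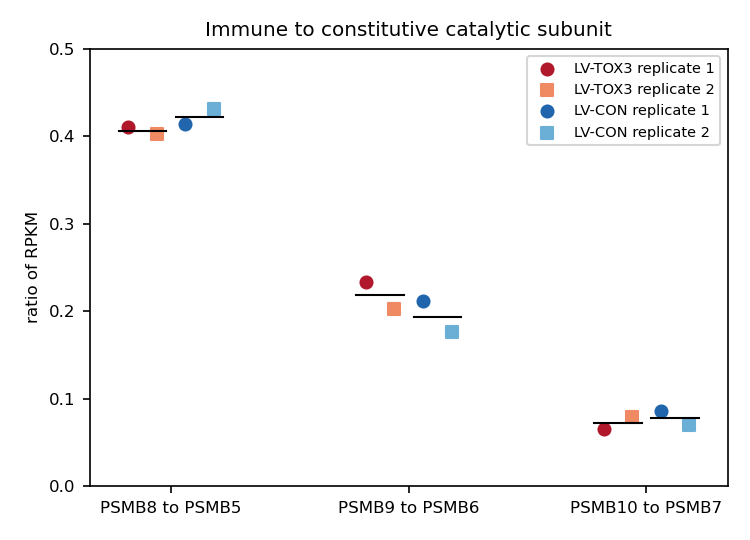
Ratio of RPKM of each immune subunit to the constitutive subunit it replaces, per library, with lines at the group means. PSMB8 to PSMB5 lies near 0.4 in all libraries with LV-TOX3 below LV-CON, and the groups overlap in the other 2 ratios.

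Of the genes that bind the ends of the core, PSME1 and PSME2, which form the interferon-inducible cap, and PSME3 and PSME4, which form caps of the nucleus, all had negative log2 fold changes. PSME1 had 88.9 and 79.4 RPKM in LV-TOX3, against 97.4 and 85.7 RPKM in LV-CON, so its groups overlapped (adjusted p = 0.866 from limma). PSME2 had 22.2 and 22.3 RPKM in LV-TOX3, against 24.2 and 23.9 RPKM in LV-CON, without overlap (log2 fold change -0.11 ± 0.07; adjusted p = 0.797 from limma). The PSME2 to PSME1 ratio was 0.250 and 0.280 in LV-TOX3 and 0.249 and 0.279 in LV-CON, differing more between replicate numbers than between groups. PSME3 had 26.7 and 28.5 RPKM in LV-TOX3, against 28.2 and 30.6 RPKM in LV-CON, and PSME4 had 9.76 and 9.68 RPKM in LV-TOX3, against 9.53 and 10.3 RPKM in LV-CON. Both overlapped between groups. PSMF1, which inhibits the core and competes with the activators, had 20.6 and 20.3 RPKM in LV-TOX3 and 20.3 and 19.9 RPKM in LV-CON, with a log2 fold change of 0.022 ± 0.068 (adjusted p = 0.969 from limma).

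The core is assembled with PSMG1 to PSMG4 and POMP, and the base with PSMD5, PSMD9 and PSMD10. POMP, which helps form the beta ring, had 67.4 and 66.3 RPKM in LV-TOX3, against 71.1 and 76.0 RPKM in LV-CON, without overlap (log2 fold change -0.14 ± 0.07; adjusted p = 0.763 from limma). PSMG2, the partner of PSMG1, had 15.5 and 13.1 RPKM in LV-TOX3, against 15.8 and 15.05 RPKM in LV-CON, with overlap (adjusted p = 0.874 from limma), whereas PSMG1 had 14.8 and 15.1 RPKM in LV-TOX3, against 14.7 and 13.9 RPKM in LV-CON. PSMG4, the lowest, had 1.33 and 1.39 RPKM in LV-TOX3, against 1.52 and 1.48 RPKM in LV-CON (adjusted p = 0.917 from limma). The 5 core assembly genes summed to 230 and 227 RPM in LV-TOX3, against 236 and 244 in LV-CON. The base chaperones summed to 115 and 120 RPM in LV-TOX3, against 125 and 133 in LV-CON. Of these, PSMD5 had 14.1 and 14.7 RPKM in LV-TOX3, against 14.5 and 15.9 RPKM in LV-CON, with overlap (adjusted p = 0.884 from limma), and PSMD9 had 64 and 81 reads in LV-TOX3, against 73 and 86 reads in LV-CON.

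The genes taken by name alone were low. PSMC3IP had 2.12 and 2.01 RPKM in LV-TOX3, against 2.25 and 2.94 RPKM in LV-CON (log2 fold change -0.30 ± 0.17; adjusted p = 0.789 from limma). PSMD6-AS2 had 0.865 and 0.968 RPKM in LV-TOX3, against 1.10 and 1.21 RPKM in LV-CON (adjusted p = 0.848 from limma), and PSMB8-AS1 had 0.971 and 0.875 RPKM in LV-TOX3, against 1.13 and 0.976 RPKM in LV-CON. In these 3 of the 5 genes the LV-TOX3 libraries lay below the LV-CON libraries, against 20.6% of all genes tested. In PSMB8-AS1 the closest libraries had 33 reads in LV-TOX3 replicate 1 and 34 reads in LV-CON replicate 2. PSMA3-AS1, the highest antisense transcript, had 3.55 and 4.42 RPKM in LV-TOX3, against 4.01 and 3.47 RPKM in LV-CON, and its groups overlapped. Reads of an antisense transcript and of its partner cannot be told apart where strand was not used in counting. PSMC3IP lies for 57.2% of its main transcript opposite MLX, so the same holds for its reads.

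Genes outside the name rule that act in or around the complex were counted beside its members. For comparison, 53.2% of all 14184 genes tested had a negative log2 fold change. Of the 12 tested genes of proteasome-bound proteins, 7 had negative and 5 positive log2 fold changes, 0 at an unadjusted p under 0.05 by limma, with a median of -0.039. ZFAND5, which binds and activates the complex, had 36.9 and 34.6 RPKM in LV-TOX3, against 32.7 and 31.9 RPKM in LV-CON (adjusted p = 0.762 from limma), and AKIRIN2, which brings it into the nucleus, had 30.0 and 30.6 RPKM in LV-TOX3, against 26.8 and 28.9 RPKM in LV-CON (adjusted p = 0.801 from limma). Both LV-TOX3 libraries lay above both LV-CON libraries in these genes, as in 17.0% of all genes tested. The direction was opposite to that of most subunits. However, both genes were picked from the list by p in these same libraries, so their separation adds no support for a contrast with the subunits. Of the 11 tested genes of ubiquitin supply, 6 were negative and 5 positive, 0 at an unadjusted p under 0.05 by limma, and the gene of the smallest p was UBQLN2, a shuttle (log2 fold change 0.13; adjusted p = 0.802 from limma). Of 8 genes of the p97 segregase and its cofactors, 7 were negative, 0 at an unadjusted p under 0.05 by limma, led by UBXN1 (-0.11; adjusted p = 0.844 from limma) and FAF1 (-0.050; adjusted p = 0.945 from limma).

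Among 11 regulators of proteasome transcription, 8 were negative, 3 were positive, and 0 stood at an unadjusted p under 0.05 by limma, with a median of -0.051. The share of negative genes over all genes tested was 53.2%. MAFK, a small partner of the NFE2L1 protein, had 12.1 and 12.9 RPKM in LV-TOX3, against 13.6 and 15.9 RPKM in LV-CON (log2 fold change -0.24; adjusted p = 0.734 from limma). NFE2L1 had 56.2 and 47.0 RPKM in LV-TOX3, against 59.5 and 56.0 RPKM in LV-CON (-0.17; adjusted p = 0.806 from limma), so its groups overlapped. Of 11 genes of antigen processing beside the immune subunits, 6 were negative and 5 positive, and 1 was higher at an unadjusted p under 0.05 (3.07% of all genes were). It was ERAP1, the aminopeptidase that trims peptides in the endoplasmic reticulum, with 10.6 and 10.2 RPKM in LV-TOX3, against 9.25 and 8.45 RPKM in LV-CON (log2 fold change 0.23 ± 0.09, SE; adjusted p = 0.725 from limma).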

How the data were processed

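RNA of KGN cells was analysed in 4 libraries, 2 of LV-TOX3 and 2 of LV-CON cells. The authors deposited RPKM values per gene; the methods name SOAPnuke for filtering, HISAT2 for alignment to hg38 and an expectation maximization tool for quantification. They also name ComBat against batch effects, without naming the batches. Tool versions, the strand setting and the step at which ComBat entered, before or after these values, were not given in the sources used here, so the part of batches in these values was not tested. Reads per gene were recovered from the steps of the values, which were whole multiples of 1 read for 29087 of 29088 genes above 0 at a relative tolerance of 1e-12; such a tool can give fractional reads, so how the values were made is unsure. Library totals were 17413376 and 16403371 in LV-TOX3 and 17757132 and 17858746 in LV-CON.

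The log2(RPKM + 0.1) values of genes averaging 0.5 RPKM or more (14184) were fitted with limma 3.58.1 in R 4.3.3 (lmFit, eBayes with trend, two-sided, no block), with Benjamini-Hochberg adjustment over all of them. The fit was tested on simulated data. Ratios were compared by exact permutation, whose smallest p is 0.3333 here. The members and lists were chosen with earlier results of these data known. Genes named with values are members at an unadjusted p under 0.05, the 2 of smallest p and the highest and lowest of each class, all immune, cutting, activator and inhibitor genes, POMP, and of each related list those at p under 0.05 or else the 2 of smallest p; PSMD11, PSMD14, PSMG1 and PSMB8-AS1 were added after their values were seen, and 1 gene of the lists that this rule takes is not reported here. Coordinates and overlaps are from GENCODE v44 on hg38, promoters from RefSeq on GRCh38.p14. Alternatives were another pseudocount, other filters, median ratio scaling, quantile normalization, a replicate block, limma-voom on recovered reads and leaving out each library. Python 3.11.15, numpy 2.4.6, pandas 2.3.3 and matplotlib 3.10.9 served for tables and figures.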

Additional observations from a re-analysis of the deposited data

How the results depend on the processing

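Over all alternatives, 34 to 39 members had a negative log2 fold change and 0 members passed an adjusted p under 0.05. The scalings moved the median of all genes by less than 0.02 on the log2 scale. TOX3 was the only gene past an adjusted p under 0.05 as reported; without a filter on low values 0 genes passed, and 0 passed with any library left out. The count of members lower at an unadjusted p under 0.05, 3 as reported, ranged between 0 and 2 of 49 with a library left out (0% to 4.08%), where 2.14% to 3.31% of all genes were lower at that threshold. PSMD4 also missed that threshold under quantile normalization. With a library left out, the member median ranged between -0.102 and -0.052, and the class medians between -0.13 and -0.064 (beta ring), -0.18 and -0.068 (base non-ATPases), -0.097 and -0.033 (lid), -0.099 and -0.039 (core assembly), -0.093 and -0.075 (activators) and -0.23 and -0.074 (antisense transcripts and PSMC3IP). With a pseudocount of 1 the median of core assembly was -0.080 and that of the antisense transcripts and PSMC3IP -0.092, and with quantile normalization that of the activators was -0.071. The cause of these moves was not tested. Direction turned for 12 members, 10 of them only with a library left out. Median ratio scaling gave log2 fold changes of 0.0012 for PSMD12 and 0.0093 for PSMD14, and quantile normalization gave 0.0097 for PSMD14, all within 0.01 of 0. With a library left out, the ranges were -0.023 to 0.061 for PSMA3, -0.088 to 0.12 for PSMB9, -0.0033 to 0.13 for PSMC4, -0.099 to 0.11 for PSMC5, -0.012 to 0.034 for PSMD1, -0.13 to 0.10 for PSMD12, -0.026 to 0.019 for PSMD14, -0.24 to 0.0058 for PSMG2, -0.064 to 0.20 for PSMG3, -0.083 to 0.028 for PSME4, -0.070 to 0.24 for PSMA3-AS1 and -0.069 to 0.12 for PSMG3-AS1.

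The labels number the replicates but do not say that a number marks anything shared. The replicate 2 minus replicate 1 differences of the groups correlated at 0.19 over the 14184 genes and at 0.0063 over the 49 members. With the replicate number as a block, 7 of 49 members (14.3%) were lower at an unadjusted p under 0.05, against 6.99% of all genes in the same fit. With the block in limma-voom on recovered reads, an alternative chosen after seeing the data, 8 (16.3%) were lower, against 7.49% of all genes, and 596 genes of all passed an adjusted p under 0.05, 0 of them members. With 2 libraries a group, the spread of each gene rests on few degrees of freedom, and counting error limits PSMA1, PSMA2, PSMA6, PSMB10 and PSMD9.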
